A study of Mus musculus with 33 samples.

Results

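The Janus kinases (JAKs) and the signal transducers and activators of transcription (STATs) were examined in bone marrow RNA of mice given a JAK1/2 inhibitor, a BCL2 inhibitor or neither. The members were the endogenous probes named for a JAK-family kinase or a STAT factor: Jak1, Jak2, Jak3 and Tyk2 among the kinases, and Stat2, Stat3, Stat4, Stat5b and Stat6 among the factors. These are 9 of the 750 endogenous genes on the panel, chosen by name and not by any measured value, and all 9 were tested. The mice were female wild-type C57BL/6 animals, 6 to 8 weeks of age. Venetoclax, a BCL2 inhibitor, or its vehicle of phosal, polyethylene glycol and ethanol was given by oral gavage daily for 2 days, and ruxolitinib, a JAK1/2 inhibitor, or its own vehicle of DMSO, polyethylene glycol and water was given 2 times a day for 2 days. The methods give the doses as 100 mg/kg for venetoclax and 180 mg/kg for ruxolitinib. Marrow RNA was taken 1, 3 or 7 days after treatment from 3 mice given a drug and 2 given its vehicle on each day, and from 3 untreated mice, which makes 33 mice in 13 groups. The lane headers of the mice labelled day 3 read day 2, and the labels were followed, so a value of day 3 holds only as far as the labels do. No source says whether mice of a group were treated or extracted apart, so the p-values measure the spread between these mice only, and each comparison with a vehicle rests on 2 vehicle-treated mice.

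Cytokine receptors without enzyme activity of their own carry JAK kinases on their cytoplasmic tails. When a cytokine binds, the kinases phosphorylate the receptor and then STAT proteins, which pair, enter the nucleus and switch on target genes. In bone marrow this pathway carries the signals of erythropoietin, thrombopoietin, the colony-stimulating factors, interleukins and interferons, and ruxolitinib blocks the activity of the kinase proteins. Transcript counts of the kinases and factors therefore say nothing of how active the proteins were.

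RNA was counted on the NanoString nCounter, which counts single hybridised molecules with a coloured barcode for each gene and no amplification. Values are normalised counts, the deposited counts divided by the scale of each lane's housekeeping probes. Single genes were compared between mice for the same gene only, since probes differ in efficiency. The summed level of a marker list adds different probes and so follows mainly those with the highest counts. Total endogenous counts ranged from 18056 to 466096 between lanes (median 158944). The lanes of venetoclax replicate 1 on day 1 and ruxolitinib replicate 1 on day 3 held fewer than 30000, and several member differences of venetoclax on day 1 and ruxolitinib on day 3 are given without them as well. The lanes were read in 3 runs of 11, and each run held the mice of 1 day and 1 untreated mouse, so day and run cannot be told apart except through the untreated mice. Markers of the marrow label were present: all 7 neutrophil markers on the panel were above background in every lane, and their summed level ranged from 49256 to 120843. Most of that sum was S100a8, with a median of 79548 beside 87137.5 for the sum. No erythroid marker was on the panel. The values describe whole marrow, in which fewer cells of a type and less RNA per cell cannot be told apart.

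Among the members, 7 were above background in all 33 lanes. Stat2, the partner of interferon-activated STATs, was above background in 30 lanes, and Stat4, which carries interleukin-12 signals in T and NK cells, in 21. Raw counts of Stat4 ran from 1 to 36, so its values carry more counting error than those of the other members. The ratio of the highest to the lowest group mean was 3.29 for Tyk2, 2.89 for Jak2, 2.87 for Stat3 and 2.69 for Jak3. It was smaller for Jak1 (1.64), Stat6 (1.40) and Stat5b (1.38), and none is given for Stat2 and Stat4, whose lowest groups each held a lane not above background. Such lanes were in 9 of the 13 groups for Stat4 and in 3 for Stat2, so no fitted difference of Stat4 below is an exact fold. With the groups placed in order of their means, 10 to 12 of the 12 pairs of neighbours overlapped for each member, so no member gave a graded order of groups. For several members the groups of the day 7 run lay apart from the others, as the plot of single mice shows.

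**Figure D1:**
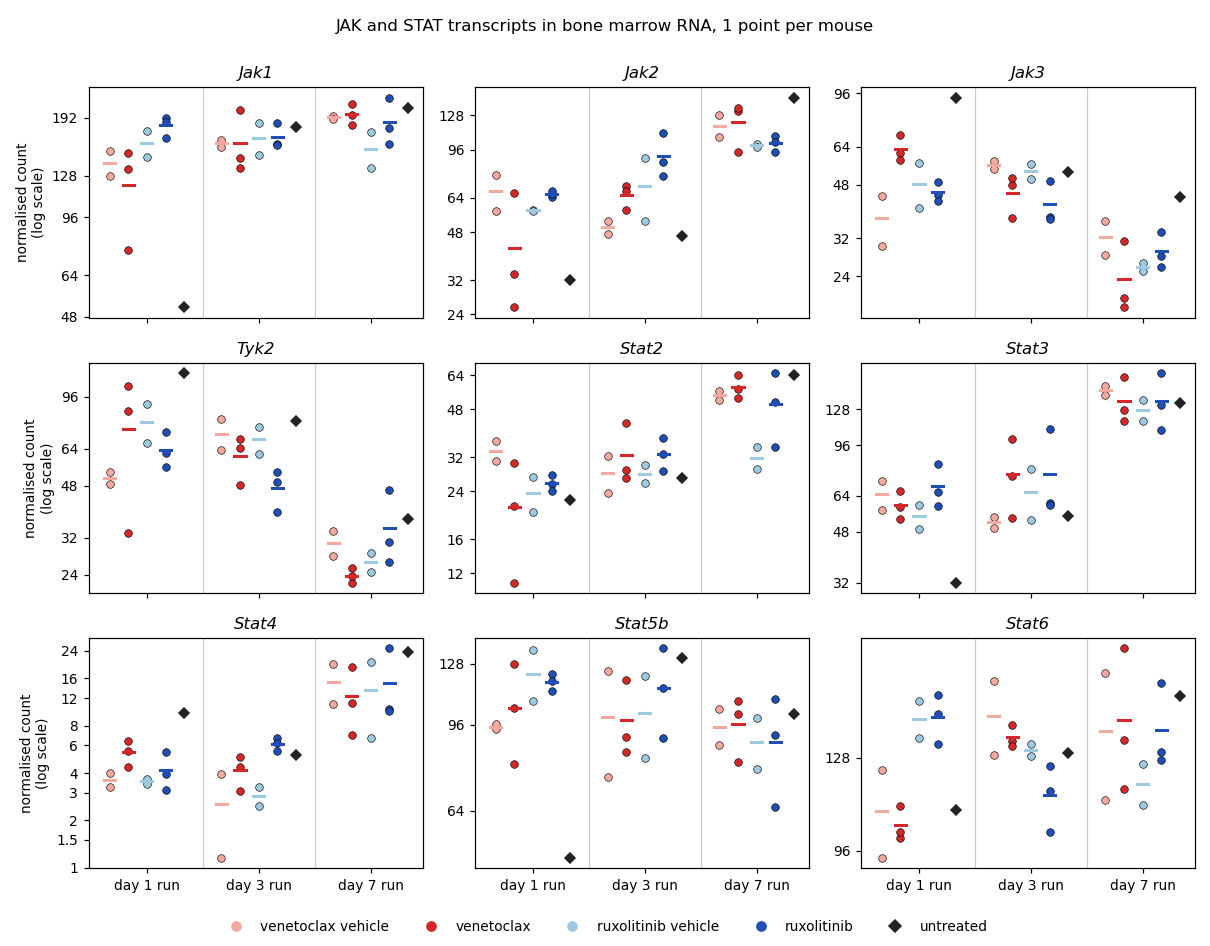
Normalised count (log scale) of each of the 9 members in every mouse, grouped by the run in which the lane was read. Circles are treated mice, horizontal bars are group means, and diamonds are the untreated mouse of each run. The means of the 4 treated groups of day 7 lie above those of all earlier treated groups for Jak2, Stat3 and Stat4 and below them for Jak3 and Tyk2, while the Stat2 mean under the ruxolitinib vehicle (31.9) lies among the earlier ones.

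Ruxolitinib binds JAK1 and JAK2, and the first question was whether the transcripts of its targets or of the rest of the family changed after treatment. On day 1, Jak1, the kinase shared by interferon, interleukin-6 and interleukin-2 family receptors, was at 167, 192 and 187 in ruxolitinib-treated mice and at 147 and 175 in vehicle-treated mice. Jak2, the kinase of erythropoietin, thrombopoietin and colony-stimulating factor receptors, was at 64.6, 66.2 and 67.8 against 57.7 and 57.5. The ranges overlapped for Jak1 and were separate for Jak2. The log2 fold changes were 0.17 for Jak1 (SE 0.28, 95% interval -0.40 to 0.75) and 0.20 for Jak2 (SE 0.32, interval -0.44 to 0.84), with adjusted p = 0.842 and 0.834 by edgeR's quasi-likelihood test. No member was called (adjusted p under 0.05), against 2.75% of the 655 genes tested. Jak2 was the only member whose groups did not overlap, where 44% of genes did not. The intervals of 7 members lay inside a 2-fold change in either direction, and those of Stat3 and Stat4 did not.

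On day 3 after ruxolitinib, Jak3, the kinase that pairs with the common gamma chain in lymphocytes, was at 49.5, 37.6 and 37.2 against 56.3 and 50.3 in vehicle-treated mice. Tyk2, the kinase of interferon-alpha and interleukin-12 family receptors, was at 49.5, 39.2 and 53.3 against 75.9 and 61.6. For these kinases the 3 ruxolitinib values all lay under the 2 vehicle values, with log2 fold changes of -0.44 (SE 0.27) and -0.58 (SE 0.32). Ruxolitinib replicate 1 is a shallow lane, in which Jak3 and Tyk2 rested on 9 raw counts each, and without it the log2 fold changes were -0.50 for Jak3 and -0.60 for Tyk2. Stat6, which carries interleukin-4 signals, was lower in all 3 mice as well (116, 125 and 102 against 133 and 129), and Stat4 was higher (5.50, 6.73 and 6.20 against 2.45 and 3.24). The Stat4 values rested on 1, 17 and 5 raw counts after ruxolitinib and on 2 and 4 after vehicle, where the background was 4.83 raw counts at the median of lanes. Thus the groups of 4 members did not overlap, where 15.6% of genes did not. The adjusted p was 0.998 for each of the 9 members, and 0.153% of genes were called. The summed level of 8 B-lineage markers in these mice was 311 to 424 after ruxolitinib and 690.1 to 727 after vehicle, with 1 of the 8 called lower, and the part of B-lineage cells in the member differences was not tested.

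On day 7 the log2 fold changes of the 9 members after ruxolitinib were between 0.02 and 0.61 with a median of 0.20, beside a median of 0.02 over all genes. Those of Jak2, Stat3, Stat4 and Stat5b fell below 0 under other settings or with a mouse left out, down to -0.12, -0.11, -0.80 and -0.14. Stat2 was at 34.9, 51.1 and 65.2 in ruxolitinib-treated mice and at 28.999 and 34.8 in vehicle-treated mice. The lowest treated mouse was thus level with the higher control. The log2 fold change of Stat2 was 0.61 (SE 0.30, adjusted p = 0.999 by edgeR), and with both vehicles of the day pooled as control it was 0.21. Stat6 was at 127, 130.4 and 162 against 126 and 111, above its vehicle in all 3 mice by 0.20 (SE 0.22). None of the 9 members was called, where 0.153% of genes were, and the groups of Stat2 and Stat6 were the 2 that did not overlap, against 17.7% of genes. The summed level of the 8 B-lineage markers was 429 to 472 after ruxolitinib and 659.9 to 661 after vehicle, with 0 of the 8 called, and their part in the member differences was not tested.

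Under venetoclax the median size of the members' log2 fold changes was 0.41 at day 1, then 0.27 and 0.10 at the later days, beside 0.37, 0.33 and 0.23 over all genes. On day 1 the kinases Jak2, Jak3 and Tyk2 stood out by unadjusted p. Jak2 was at 66.6, 33.6 and 25.5 in venetoclax-treated mice and at 77.7 and 57.4 in vehicle-treated mice. The mouse that overlapped its controls was the one from the shallow lane, and both its value and the lowest value of the group rested on 12 raw counts. The log2 fold change of Jak2 was -0.89 (SE 0.37, adjusted p = 0.353) and, without the shallow lanes, -1.12 (adjusted p = 0.161).

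Jak3 went the other way, at 61.0, 57.9 and 70.0 in the venetoclax group of day 1 against 44.2 and 30.3 under vehicle. All 3 treated mice were above both controls, with a log2 fold change of 0.76 (SE 0.27, adjusted p = 0.195). Tyk2 was at 33.3, 86.0 and 104 against 48.6 and 53.4. Its single low value came from the shallow lane, on 6 raw counts, and 2 of the 3 mice were above both controls. The log2 fold change of Tyk2 was 0.67 (SE 0.32, adjusted p = 0.441), and 0.87 without the shallow lanes (adjusted p = 0.184). These 3 kinases had an unadjusted p under 0.05, as did 10.4% of genes, and no member passed the adjustment, where 0.153% of genes did. Stat2 (11.1, 30.5 and 21.2 against 36.7 and 31.1) was lower and Stat4 (5.55, 4.36 and 6.36 against 3.24 and 3.98) higher without overlap, so that with Jak3 the groups of 3 members were separate, against 27.5% of genes. The lowest Stat2 value and the Stat4 value of the shallow lane rested on 2 and 1 raw counts. Without the shallow lanes the log2 fold change was 0.77 for Jak3 (adjusted p = 0.236) and -0.30 for Stat2, beside -0.41 with them for the latter.

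By day 3 the venetoclax differences of Jak2 and Jak3 pointed the other way from day 1. Jak2 was at 70.5, 57.7 and 67.7 in venetoclax-treated mice against 47.3 and 52.5, and Jak3 at 47.9, 50.5 and 37.4 against 57.7 and 54.0. Both were without overlap, where 26.1% of genes were, and neither was called, in a comparison that called 0% of genes (70 genes had an unadjusted p under 0.05, and DESeq2 called 1). The change of Jak2 on day 1 minus that on day 3 was -1.27 (SE 0.50), that of Jak3 was 1.07 (SE 0.37) and that of Tyk2 was 0.95 (SE 0.43), each with adjusted p = 0.392 by edgeR, where 0.305% of genes were called. Without the shallow lanes these were -1.50, 1.07 and 1.15, each with adjusted p = 0.295. On day 3 the summed level of 10 T cell markers was 53.1 to 68.0 after venetoclax and 91.8 to 127 after vehicle, with 9 of the 10 lower and 0 called. The sums of 2 megakaryocyte and platelet markers were 89.6 to 116 against 122 to 140.0, and of 7 neutrophil markers 6 were higher (median log2 fold change 1.02, 0 called) while their sums overlapped. On day 1 the sums of 8 B-lineage markers were 505 to 527 against 549.7 to 677, and those of 2 megakaryocyte and platelet markers 65.8 to 88.7 against 107 to 173, and those of 5 monocyte and macrophage markers were higher (555 to 605 against 445 to 534), with 0 called in these lists. Although the monocyte and macrophage sum was higher, only 2 of its 5 markers were (median log2 fold change -0.009). The part of these cells in the member differences was not tested. On day 7 Tyk2 was at 22.6, 23.7 and 25.3 against 27.7 and 33.7, the only member without overlap (17.3% of genes), and its log2 fold change was -0.27 (SE 0.37). No member was called on day 7 either, against 0.153% of genes. In these mice 9 of 10 T cell markers were lower (median -0.80, 0 called), 1 of 8 B-lineage markers was called lower, and the sums of 3 stromal markers were 68.8 to 131 against 54.7 to 61.8. The part of these cells in the Tyk2 difference was not tested.

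**Figure D2:**
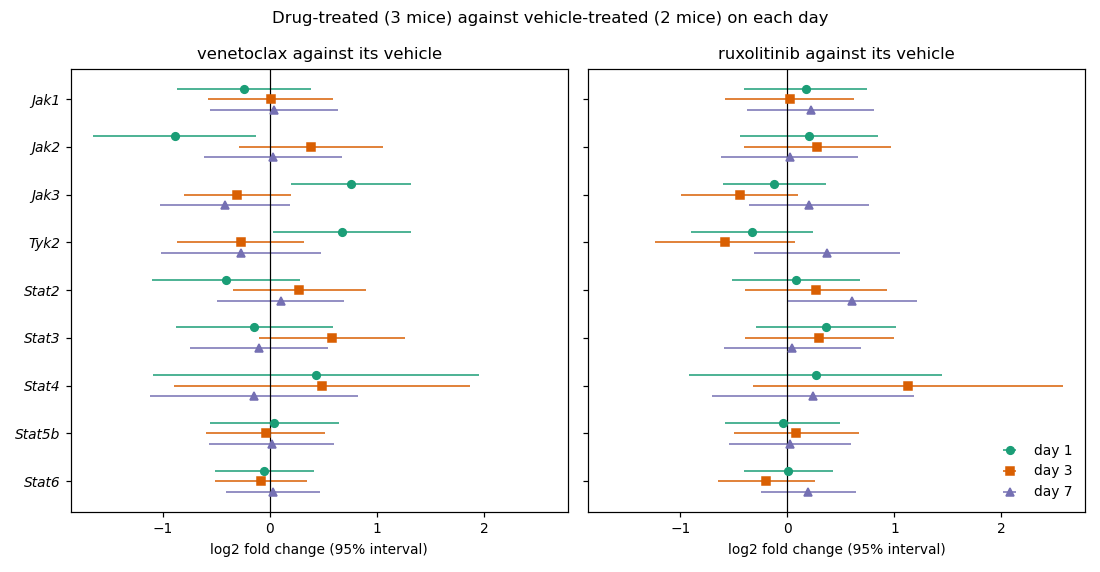
Log2 fold change of each member in 3 drug-treated against 2 vehicle-treated mice on days 1, 3 and 7, with the 95% interval of the edgeR fit as the bar. The intervals of Jak2, Jak3 and Tyk2 after venetoclax on day 1 and of Stat2 after ruxolitinib on day 7 leave out 0 before adjustment over all genes, and Stat4 has the widest intervals.

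The 2 drugs were also compared directly, as the change under ruxolitinib minus the change under venetoclax on the same day. On day 1 that difference was 1.09 for Jak2 (SE 0.49, adjusted p = 0.305), -0.88 for Jak3 (SE 0.36, adjusted p = 0.243) and -1.003 for Tyk2 (SE 0.42, adjusted p = 0.254). Without the shallow lanes it was 1.32, -0.89 and -1.20 (adjusted p = 0.180, 0.218 and 0.139). No member passed in the fit of all 13 groups, where 1.68% of genes did. When only the 4 groups of day 1 were fitted, Jak2 (1.12, adjusted p = 0.0271) and Tyk2 (-1.06, adjusted p = 0.0360) passed, in a fit that called 61 genes in place of 11, so the call depends on which mice set the spread. On days 3 and 7 no member was called (0.153% and 0.305% of genes).

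Averaged over the 3 days, which sets 9 mice given a drug against 6 given its vehicle, the log2 fold change ranged from -0.16 for Jak2 to 0.26 for Stat4 under venetoclax, and from -0.18 for Tyk2 to 0.54 for Stat4 under ruxolitinib. For each drug the 95% intervals of 8 members lay inside a 2-fold change, with Stat4 the exception. For the targets of ruxolitinib the interval was -0.20 to 0.48 for Jak1 and -0.21 to 0.55 for Jak2. Under venetoclax the days of Jak3 (0.76, -0.31 and -0.42) and Tyk2 (0.67, -0.27 and -0.27) had opposite signs and offset each other in the means of 0.01 and 0.04. No member was called, where 2.9% of genes were for venetoclax and 1.22% for ruxolitinib. The change on day 1 minus that on day 7 called no member for venetoclax or for ruxolitinib (0% and 1.53% of genes), with Jak3 under venetoclax the largest at 1.18 (SE 0.41, adjusted p = 0.285), and 1.19 without the shallow lanes (adjusted p = 0.309). Venetoclax called 0 genes here by edgeR, where 37 had an unadjusted p under 0.05.

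The vehicles themselves were set against untreated mice. In the 3 untreated mice, 1 from each run, Jak3 was at 92.8, 53.0 and 43.8 and Tyk2 at 115.2, 79.2 and 37.1. The mouse read with day 1 was the highest of all 33 for both. It was also the lowest of all 33 for Jak1 (51.2), Stat3 (32.0) and Stat5b (51.2). Only 38.5% of endogenous probes were above background in its lane, which is not among the lanes called shallow. Over the 12 vehicle-treated mice Jak3 was lower by 0.61 (SE 0.20, adjusted p = 0.304) and Tyk2 by 0.63 (SE 0.23, adjusted p = 0.374), and without untreated replicate 1 the differences were -0.32 and -0.36. With the run as a block they were -0.52 and -0.46. No member was called, and 0% of genes were. Of 75 genes with an unadjusted p under 0.05, 72 were lower and 3 higher in vehicle-treated mice, and the median over all genes was -0.14.

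More members were called between the day 7 run and the earlier runs than in any drug comparison, where the run and the day are the same split. In the mice read with day 7, Stat3, the factor of interleukin-6 and granulocyte colony-stimulating factor signals, was at 154 and 143 in the venetoclax vehicle and at 138 and 117 in the ruxolitinib vehicle. In the 8 vehicle-treated mice of days 1 and 3 it ranged from 49.3 to 79.5 (median 55.8). The groups did not overlap. The share of all genes without overlap between day 7 and the earlier days was not computed. Separations of members between these days, here and below, therefore have no such share beside them. In drug-treated mice Stat3 ranged from 108 to 171 on day 7 (median 129.8, n = 6) and from 53.0 to 109.6 on days 1 and 3 (median 63.4, n = 12), with 1 mouse of day 3 inside the day 7 range. The log2 difference, day 7 minus the mean of days 1 and 3, was 1.24 in vehicle-treated mice (SE 0.21, adjusted p = 4.45e-05) and 0.94 in drug-treated mice (SE 0.18, adjusted p = 0.000114).

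Jak2 was at 128, 107, 101 and 98.4 in the vehicle-treated mice of day 7, against 47.3 to 89.2 (median 57.4) on days 1 and 3. In drug-treated mice the day 7 values ran from 93.8 to 136 (median 105) and the earlier ones from 25.5 to 110.1 (median 67.1). Vehicle groups were separate, and 1 drug-treated mouse of day 3 lay within the day 7 range, with differences of 0.84 (SE 0.21, adjusted p = 0.00227) and 0.87 (SE 0.18, adjusted p = 0.000262). Stat2 was at 20.1 to 36.7 (median 28.5) in vehicle-treated and at 11.1 to 42.7 (median 28.1) in drug-treated mice of days 1 and 3, and in drug-treated mice of day 7 it was at 34.9 to 65.2 (median 55.0). It rose by 0.53 in vehicle-treated mice (SE 0.20, adjusted p = 0.0381) and by 0.83 in drug-treated mice (SE 0.16, adjusted p = 0.000178). In 2 of the 12 earlier drug-treated lanes, the shallow ones, Stat2 was not above background, and without them the difference was 0.80 (SE 0.17, adjusted p = 0.000410). In vehicle-treated mice this call of Stat2 did not hold under 4 of 9 alternatives, or when any of 8 of the 12 mice was left out singly. Its day 7 values were 52.0 and 56.2 under the venetoclax vehicle and 28.999 and 34.8 under the ruxolitinib vehicle, without overlap between the 2 vehicles. Stat4 was at 10.9, 19.7, 6.72 and 20.5 on day 7 and between 1.15 and 3.98 before, and 4 of the 8 earlier lanes were not above background, so the fitted log2 difference of 1.77 (SE 0.37, adjusted p = 0.000308) gives no exact fold. In drug-treated mice Stat4 was at 6.95 to 24.8 (median 10.7) on day 7 and at 3.09 to 6.73 (median 5.26) before, a log2 difference of 1.23 (SE 0.29, adjusted p = 0.000913). Here too the fit gives no exact fold, since 5 of the 12 earlier lanes and the lowest lane of day 7 were not above background.

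Tyk2 and Jak3 fell. Tyk2 was at 27.7, 33.7, 28.4 and 24.6 in the vehicle-treated mice of day 7, against 48.6 to 90.4 (median 65.1) before, with no overlap. In drug-treated mice it was at 22.6 to 46.3 (median 25.9) against 33.3 to 104 (median 58.6). The log2 difference was -1.24 in vehicle-treated mice (SE 0.23, adjusted p = 9.76e-05) and -1.07 in drug-treated mice (SE 0.19, adjusted p = 5.84e-05). Jak3 was at 28.1, 36.5, 25.03 and 26.6 against 30.3 to 57.7 (median 52.2), with 1 vehicle-treated mouse of day 1 within the later range. In drug-treated mice it was at 19.0 to 33.6 (median 26.9) against 37.2 to 70.0 (median 48.6), which did not overlap. Its differences were -0.79 (SE 0.19, adjusted p = 0.00117) and -0.87 (SE 0.16, adjusted p = 7.68e-05), the first of which had adjusted p = 0.0522 without the first mouse of the venetoclax vehicle on day 7.

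Thus 6 of 9 members were called in vehicle-treated mice, where 36.6% of genes were, and 6 of 9 in drug-treated mice, where 32.8% were. The share of genes in vehicle-treated mice fell to 21.2% without the first mouse of the venetoclax vehicle on day 7, with 4 members called, and to 22.7% without the first mouse of the ruxolitinib vehicle on that day, with 5 called. The 6 members were the same in both, each with the same sign. The 2 comparisons share no mouse but share the 3 runs, and over all genes 27.3% were called in both, of which 100% had the same sign. Jak1, Stat5b, which carries growth hormone and interleukin-2 signals, and Stat6 were called in neither, with differences between -0.16 and 0.29. Day 3 against day 1 called no member in vehicle-treated mice (0% of genes, with 13 genes at an unadjusted p under 0.05) or in drug-treated mice (1.83% of genes). The median over all genes was 0.14 in vehicle-treated and 0.06 in drug-treated mice for day 7. Across other scalings and fits it moved from -0.04 to 0.38 and from -0.10 to 0.25, and the 6 members kept their signs throughout.

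**Figure D3:**
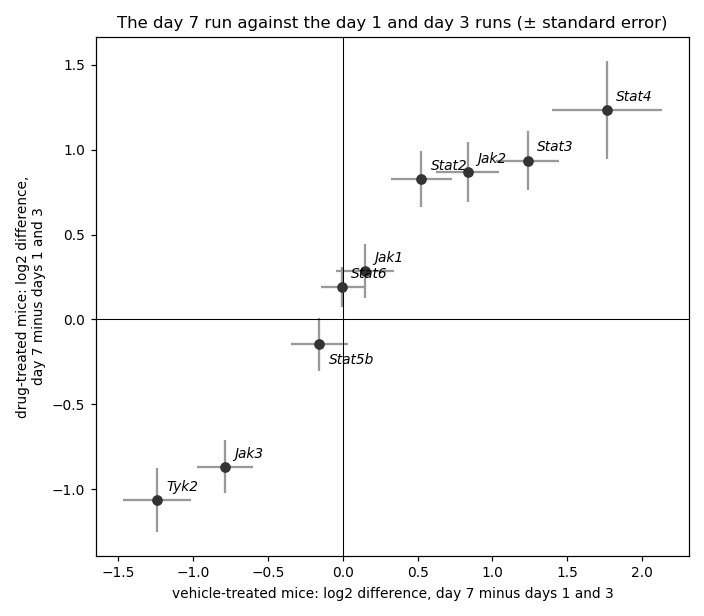
Log2 difference of each member between the day 7 run and the mean of the day 1 and day 3 runs, in vehicle-treated mice (horizontal axis, 12 mice) and in drug-treated mice (vertical axis, 18 mice), with bars for the standard error. Jak2, Stat2, Stat3 and Stat4 lie above 0 on both axes, Jak3 and Tyk2 below, and Jak1, Stat5b and Stat6 near 0.

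The untreated mice, which have no day of treatment, also differed between runs. From the run of day 1 to those of days 3 and 7, Jak2 was at 32.0, 46.3 and 148, and Stat3 at 32.0, 54.5 and 135. Stat2 was at 22.4, 26.9 and 64.0, and Stat4 at 9.60, 5.23 and 23.6. The Stat2 value of 22.4 (7 raw counts) and the Stat4 values of 9.60 and 5.23 (3 and 7 raw counts) were not above background. Tyk2 was at 115.2, 79.2 and 37.1 and Jak3 at 92.8, 53.0 and 43.8. For each of these 6 members the untreated mouse of the day 7 run stood on the same side of the other untreated mice as the treated mice did. These 6 are given because they were called for that run, and the share of all genes that did so was not computed. Jak1 (51.2, 180 and 206) and Stat6 (109, 130 and 155), which were not called, were also highest in the untreated mouse of that run. With 1 untreated mouse in a run these values have no replicate check, and the untreated lanes of the day 1 and day 7 runs held 47977 and 37003 endogenous counts.

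Genes of other cell types moved with that run. Of 7 neutrophil markers 6 were higher and 1 was lower at an adjusted p under 0.05 in vehicle-treated and in drug-treated mice. The granule genes Elane, Mpo and Ctsg were higher by 2.42, 1.84 and 2.25 in vehicle-treated mice, and S100a8 was lower (-1.002). The summed level of the list was 49256 to 75019 in the day 7 run and 54646 to 120843 in the other runs. Of 3 progenitor markers Cd34 and Flt3 were higher and Kit was not called, with a summed level of 50.6 to 92.2 against 21.9 to 57.4. Of 7 NK cell markers 2 were higher in vehicle-treated and 3 in drug-treated mice, of 8 B-lineage markers 3 were higher and 3 lower in each, and of 10 T cell markers 1 was higher in vehicle-treated mice. Of 5 monocyte and macrophage markers Cd68 (1.29 and 0.85) and Csf1r (0.39 and 0.43) were higher in vehicle-treated and in drug-treated mice, and the summed level was 564 to 745 in the day 7 run against 437 to 646 in the others. The part of cell composition, run and RNA quality in the day 7 differences was not tested.

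Beside the members stood the rest of the pathway, in lists of negative regulators, receptors, ligands and STAT partner or target genes. Of the 18 negative regulators listed, 4 were on the panel: Socs1 and Socs3, which bind and switch off JAKs, Ptprc (CD45), a phosphatase of JAKs, and Usp18, which blunts interferon receptors. None was called in any of the 6 drug comparisons. Raw counts were 1 to 31 for Socs1, 1 to 12 for Socs3 and 1 to 26 for Usp18. The background was 4.83 raw counts at the median of lanes, so changes of these genes could be missed. Ptprc had at least 54 raw counts in every lane. Of 23 receptor genes that were tested, 1 was called in a comparison of a drug with its vehicle on a single day. This was Il2ra, the alpha chain of the interleukin-2 receptor, lower by 1.92 on day 7 after ruxolitinib (SE 0.36, adjusted p = 0.00472), and it was the 1 gene of the 655 called there (0.153%). The B-lineage sums of those mice, given above, were also lower after ruxolitinib, and their part in the Il2ra difference was not tested. Averaged over the 3 days, 1 of the 23 receptors was called, Il7r, the interleukin-7 receptor, which was lower after ruxolitinib, where 1.22% of genes were called. In that average 8 of 8 B-lineage markers were lower and 2 were called, and their part in the Il7r difference was not tested. Of 13 ligands none was called.

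In the STAT partner and target list 5 of 27 genes were called on day 1 after ruxolitinib, all lower, where 2.75% of all genes were called (18, of which 13 were lower): Ifit3 (-2.81, SE 0.39), Isg15 (-2.47, SE 0.39), Oas2 (-2.10, SE 0.31), Cxcl10 (-1.83, SE 0.52) and Rsad2 (-1.73, SE 0.28). Isg15, Ifit3, Oas2 and Rsad2 are interferon-stimulated genes with antiviral roles, and Cxcl10 is a chemokine induced by interferon. The list had 17 of 27 genes lower and a median of -0.22, beside a median of 0.13 over all genes and of 0.08 over the 9 members. None of the 27 was called on day 3 or 7 after ruxolitinib or on any day after venetoclax. Averaged over the 3 days Oas2 was called lower after ruxolitinib, where 1.22% of genes were called, and no gene of the list after venetoclax. The change under ruxolitinib minus that under venetoclax on day 1 called Isg15, Ifit3 and Oas2 lower (1.68% of genes). The ruxolitinib change on day 1 minus that on day 7 called these and Rsad2 lower (1.53% of genes), and the venetoclax change on day 1 minus that on day 3 called Rsad2 lower (0.305% of genes). The list was drawn up with earlier results of these data known. In the same mice the summed level of 3 stromal markers was 189 to 273 after ruxolitinib and 68.8 to 69.6 after vehicle, with 1 of the 3 called higher. The sums of NK cell markers (60.9 to 67.3 against 79.7 to 91.7) and neutrophil markers (76450 to 89019 against 94642 to 101442) were lower without overlap. Those of T cell (89.4 to 98.5 against 82.4 to 84.2), megakaryocyte and platelet (138 to 269 against 95.2 to 131) and progenitor markers (39.9 to 41.4 against 23.8 to 35.3) were higher without overlap, and 0 genes of these lists were called. Although the neutrophil sum was lower, 6 of its 7 markers were higher (median log2 fold change 0.63). The part of these cells in the differences was not tested.

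**Figure D4:**
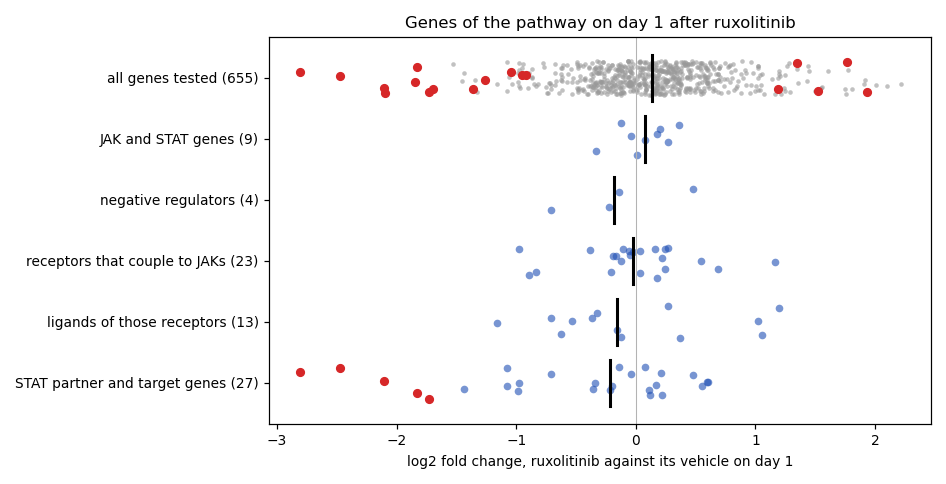
Log2 fold change of single genes, ruxolitinib against its vehicle on day 1, for all 655 genes tested, the 9 members and the 4 pathway lists. Points in red had an adjusted p under 0.05, black bars are medians, and the vertical scatter carries no meaning. The 9 members lie between -0.33 and 0.36, and the 5 called genes of the target list lie at -1.73 or lower.

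Between the day 7 run and the earlier runs, 2 of the 23 receptors were higher and 7 lower in vehicle-treated mice, and 1 was higher and 6 were lower in drug-treated mice. Of the 27 STAT partner and target genes 5 were higher and 3 lower in vehicle-treated mice, and 6 were higher and 1 lower in drug-treated mice. Of 13 ligands 3 were called in each, and of 4 negative regulators 1 in each, Ptprc in vehicle-treated and Socs3 in drug-treated mice. The Socs3 call rested on 2, 1, 4, 10, 4 and 1 raw counts on day 7. Only the lane with 10 was above background. These counts stand beside 36.6% and 32.8% of all genes called. Csf3r, the receptor of granulocyte colony-stimulating factor and chosen here after its values were seen, was lower by 0.68 (SE 0.19) in vehicle-treated and by 0.59 (SE 0.16) in drug-treated mice, while Stat3, which acts downstream of it, was higher in both.

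Across the 13 group means, the genes most like each member in pattern were found by Pearson's r among 346 candidates, as a description of groups that differ mostly by run. For Stat3 these were Lamp2, Elane and Cybb (r = 0.986, 0.98 and 0.979). For Jak2 they included Cd164 and Cd47 (0.972 and 0.965), and for Tyk2 Igf1r, Tnfrsf14 and Cd99 (0.974, 0.935 and 0.926). Igf1r also led for Jak3 (0.952), Il1rn for Stat2 (0.942), Vcam1 for Stat4 (0.922) and Txnip for Jak1 (0.913). The highest r was 0.783 for Stat6 (Il1b) and 0.707 for Stat5b (Bax). Within runs, over 11 mice each, 36 pairs of members were correlated in 3 runs (108 tests). No pair passed the adjustment over the 108 permutation tests (lowest adjusted p = 0.102 for Pearson's r and 0.154 for Spearman's rho).

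Promoters were searched for the motifs that STAT and interferon signals act through. The genes lie at chr4:101151974-101265282 (Jak1), chr19:29251803-29313095 (Jak2), chr8:71676383-71690577 (Jak3), chr9:21104068-21131393 (Tyk2), chr10:128270498-128292853 (Stat2), chr11:100886806-100939594 (Stat3), chr1:51987106-52107189 (Stat4), chr11:100780731-100859004 (Stat5b) and chr10:127642955-127660987 (Stat6) in build GRCm38.p6. The RefSeq promoter windows of build GRCm38.p6, from 250 bases before to 50 bases after a start, gave 11 promoters for the 9 members. The gamma-activated sequence to which STAT dimers bind, TTCNNNGAA on either strand, was in 0 of the 11, and 8.30% of 32851 promoters of all genes held it. The core of the interferon-stimulated response element, searched as GAAA repeated after 2 free bases on either strand, was in 2 of the 11, and 3.44% of all promoters held it. The 2 windows that held it belong to Stat2 and to the second start of Stat4. They are shown here from 5′ to 3′ on the plus strand, up to the base before the start for Stat2 (chr10:128270248-128270497), with the match in capitals 222 to 213 bases before the start and read on the opposite strand, and around the match for Stat4 (chr1:52008093-52008202), 97 to 88 bases before that start. A match is a run of letters and no evidence of binding.
Stat2: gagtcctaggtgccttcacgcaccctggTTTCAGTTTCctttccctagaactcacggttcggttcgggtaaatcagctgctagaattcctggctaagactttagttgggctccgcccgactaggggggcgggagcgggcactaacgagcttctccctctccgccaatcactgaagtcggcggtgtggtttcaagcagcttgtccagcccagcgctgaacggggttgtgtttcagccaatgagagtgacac
Stat4: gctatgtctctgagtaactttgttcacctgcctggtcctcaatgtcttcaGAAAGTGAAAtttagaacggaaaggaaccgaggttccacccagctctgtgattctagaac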

How the data were processed

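Bone marrow RNA of 33 mice was hybridised to a NanoString nCounter mouse panel of 750 endogenous, 20 housekeeping, 8 negative and 6 positive control probes. The deposited description and the study's methods name the panel differently, and the description gives the drug amounts per ml where the methods give them per kg. The authors deposited raw barcode counts per probe for each lane, with no normalisation, and processed them in nCounter Advanced Analysis 2.0.115. The scale of a lane was the geometric mean count of those housekeeping probes that exceeded background in every lane (11), background being the mean plus 2 SD of the negative probes. Genes that exceeded background in 2 or more lanes (655) entered edgeR 4.0.16 (R 4.3.3) for the quasi-likelihood test on the deposited counts with 13 group means and 20 residual degrees of freedom, and Benjamini-Hochberg adjustment at 0.05. Intervals and standard errors come from the same fit. Scaling acts on every gene of a lane, so a lane with few housekeeping counts (factors from 0.180 to 3.41) carries more error. On simulated data for ruxolitinib on day 1, 200 of 655 genes were changed. There 61% of 2-fold and 94% of 4-fold changes were recovered, and 93.9% of 165 calls were true. The measured comparison called 18 genes, and recovery with fewer changed genes was not simulated, so these rates may be too high for it. No pair of lanes held identical values. The correlation of deviations of mice that share a replicate number ranged from -0.35 to 0.30. Vehicle groups of 2 mice give too few values to decide whether the numbers pair the mice.

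All 9 members are named; genes most like a member are the 3 with the highest Pearson correlation of mean log2(normalised count + 1) among genes with a mean of at least 20, and other pathway genes are those called in a drug comparison, the tested inhibitors, and Csf3r, chosen after its values were seen. 1 gene like a member is not reported here. The members and lists were chosen with earlier results of these data known, and the comparisons of day 7 with days 1 and 3, of day 3 with day 1 and of the change between days 1 and 3 or 3 and 7 were added after values were seen. Alternatives were TMM, total count and all housekeeping scaling, DESeq2 1.42.0, no filter, a replicate block, a fit of only the groups compared, pooled vehicles, the run as a block, no shallow lanes, subtracted background and each mouse left out. Correlations were tested with 100000 permutations (Python 3.11.15, scipy 1.17.1).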

Additional observations from a re-analysis of the deposited data

Results flagged for a closer look

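The Jak3 difference after venetoclax ran in opposite directions on 2 days. On day 1 the 3 venetoclax values all lay over the 2 vehicle values (log2 fold change 0.76) and on day 3 they all lay under them (-0.31). The difference between these changes was 1.07 (SE 0.37) with adjusted p = 0.392 by edgeR's quasi-likelihood test, so it did not pass.

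Stat6 after ruxolitinib was below its vehicle in all 3 mice on day 3 (-0.19) and above it in all 3 on day 7 (0.20). That difference was -0.39 (SE 0.31) with adjusted p = 0.999 by the same test.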

How the results depend on the processing

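No member was called in the 6 drug comparisons under any alternative or with any mouse left out (0 in each). The lowest adjusted p was 0.0895 over the alternatives and 0.158 with a mouse left out. Of the 54 differences of 9 members in these comparisons, 29 kept their direction in every setting, and those that turned at least once, 25 in all, had a log2 fold change of at most 0.30 in size. Members were called in other comparisons only with certain settings: 2 for the drug difference on day 1 when only the groups compared were fitted, and 1 (Jak2, 0.72, adjusted p = 0.0395) for drug-treated mice on day 3 against day 1 with all housekeeping probes, against 0 in each otherwise. Members called for the day 7 run were 4 to 6 in vehicle-treated mice and 6 in drug-treated mice with a mouse left out, and 5 to 6 and 6 to 7 over the alternatives. With the replicate block, 0 members were called in each drug comparison and 6 in each day 7 comparison. Whether the replicate numbers mark a batch is not known.

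Counts of all genes called moved by more than 1.5 times in several comparisons, of which examples follow. With only the groups compared they were 19 in place of 1 for venetoclax and 77 in place of 18 for ruxolitinib on day 1, and 61 in place of 11 for their difference. With both vehicles pooled they were 25 and 30 on day 1, and 10 in place of 1 for ruxolitinib on day 3. With the replicate block they were 11 in place of 19 for venetoclax and 4 in place of 8 for ruxolitinib over the 3 days. All housekeeping probes gave 25 in place of 12 for day 3 against day 1 in drug-treated mice and 5 in place of 0 for vehicle-treated against untreated mice. With a mouse left out, the day 7 count in vehicle-treated mice was 139 without venetoclax vehicle replicate 1 of day 7 and 149 without ruxolitinib vehicle replicate 1 of day 7, in place of 240. The cause was not tested. Each vehicle group holds 2 mice, and raw counts of Stat4 were 1 to 36, which limits the precision of its values.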
